A study of Mus musculus with 9 samples.

Results

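A set of 154 genes was examined whose RNA was higher in BV2 cells after oxygen-glucose deprivation (OGD) than in control cells, and higher still where the P300 inhibitor A-485 was present during OGD. The genes were picked by these same values. Of the 54532 genes in the deposited table, 10038 were protein-coding and averaged 1 FPKM or more over the 9 libraries (FPKM are fragments per kilobase of gene, corrected for depth), and the module was drawn from these. On the scale of log2(FPKM + 0.1), the mean of the OGD group had to exceed that of the control group by at least 0.6 (called the deprivation step here), and the mean of the OGD + A-485 group had to exceed that of the OGD group by at least 0.6 (the A-485 step). All 3 values of each group also had to lie above all 3 values of the group before it. In all, 156 genes met these conditions, and 2 of them were left out by the rule, which left 154 genes, or 1.53% of those eligible. Every value of a module gene in the 3 groups is therefore a description of the choice and was not tested.

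The study examined how hypoxia and histone lactylation bear on inflammatory activation of microglia. BV2 is an immortalized mouse microglial cell line. RNA was sequenced in 3 groups of 3 libraries each. Control cells were grown in medium with 10% serum, and OGD cells in low-glucose medium with 4% serum in a chamber with 4% O2. In the study's account of the experiments before the transcriptome, A-485 was given at 50 µM from the start of OGD and for 24 h, which was not repeated for the transcriptome itself. No group received A-485 without OGD, so the A-485 step could only be read within OGD, and both steps share the 3 OGD libraries. Nothing in the labels said that the replicates were separate cultures, so the p-values of limma given below for genes outside the module measure only the spread between these libraries, which may be technical. The reads recovered from the deposited values ranged from 12593250 to 16091038 per library. A single read, for a gene 1 kb long, was worth 0.0618 to 0.0786 FPKM.

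Microglia are the resident macrophages of the brain. They depend on signalling through the CSF1 receptor, survey tissue with pattern recognition, Fc, complement and scavenger receptors, and break down what they engulf in lysosomes. Low oxygen and low glucose switch on hypoxia-inducible and stress-related programmes and slow proliferation, while P300 and its paralog CBP are acetyltransferases that mark histones at active enhancers and promoters, and A-485 blocks their catalytic site.

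The libraries carried RNA of the macrophage lineage. All 17 fixed markers of microglia and macrophages were in the table and 15 averaged 1 FPKM or more, with Cd68 the most abundant at a mean of 342.8 FPKM. Summed over the 17 markers, the level was 604.0, 605.1 and 588.2 FPKM in the control libraries, 695.5, 674.7 and 712.4 in the OGD libraries, and 1402, 1359 and 1399 in the OGD + A-485 libraries. The sum was thus highest in the 3 OGD + A-485 libraries and lowest in the 3 control libraries. Of the 17, Csf1r, Itgam and Cx3cr1 are module genes chosen for this order, so the order of the sum was partly fixed by the choice. Among the other markers, Aif1, Ptprc, Cd68, Tyrobp, Trem2, Cd14 and C1qc had group means in the same order. For Aif1 and Tyrobp the control and OGD libraries overlapped. C1qc had a value above 0 in a single OGD library (0.0407 FPKM) and in no control library, so its order between these groups rests on that library. Spi1, Fcgr1, Adgre1, P2ry12 and Tmem119 had lower means in OGD than in control. In bulk RNA fewer cells of a type and less RNA per cell cannot be told apart. Some defining markers were at or near 0: C1qa and C1qb had no read in any control or OGD library, and P2ry12 had at most 0.138 FPKM in these. Tmem119 was low, with means of 1.40, 1.34 and 1.33 FPKM in the 3 groups. C1qb stood at 13.5, 12.7 and 12.9 FPKM in the OGD + A-485 libraries. Markers of other cells were scarce. The astrocyte markers Aqp4, Slc1a3 and Gja1, the oligodendrocyte markers Mog, Mag and Olig2, the fibroblast markers Col1a2, Dcn and Lum, the endothelial marker Cldn5 and the neutrophil markers S100a9 and Ly6g had no read in any library. The most abundant of these other markers were S100a8, which averaged 1.94 FPKM with A-485, and Mbp, which averaged 1.10 FPKM in OGD.

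Of the 10038 eligible genes, 1027 met the deprivation step without overlap (10.2%) and 1150 met the A-485 step without overlap (11.5%). The module genes are those that met both, and 871 and 994 genes met only the deprivation step or only the A-485 step. In a separate limma fit over the 16123 genes that averaged 0.2 FPKM or more, a gene was called by a limma p-value under 0.01 together with a log2 fold change beyond 0.5 in either direction. For OGD against control 11.2% of these genes were called higher and 9.81% lower, and for OGD + A-485 against OGD 12.2% were called higher and 13.4% lower. The balance in OGD turned to 1622 higher and 1756 lower under quantile normalization, and to 1588 and 1867 after rescaling to library totals.

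The deprivation step of the module genes ranged from 0.60 to 2.72 with a median of 0.96, and the A-485 step from 0.60 to 5.39 with a median of 1.06, against medians of -0.03 and 0.02 over all eligible genes. The A-485 step was the larger in 92 genes and the deprivation step in 62, and in 73 genes the steps lay within 0.3 of each other. The deprivation step made up between 16.3% and 72.3% of the whole log2 rise, with a median of 47.2%. Both steps reached 1 in 45 genes. An A-485 step of at least 2 was seen in 31 genes and a deprivation step of at least 2 in 5, namely Hist1h4h, Hist1h2bg, Selenbp2, Tnip3 and Lgals2. The median of the group means was 2.95 FPKM in control, 6.08 FPKM in OGD and 14.0 FPKM in OGD + A-485. In 46 genes the control mean was below 1 FPKM, so these passed the filter on low values through the groups in which they were high. A control library held fewer than 10 reads in 17 genes, an OGD library in 5 and an OGD + A-485 library in none, and for the lowest of these genes the size of the deprivation step rests on a few reads.

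**Figure D1:**
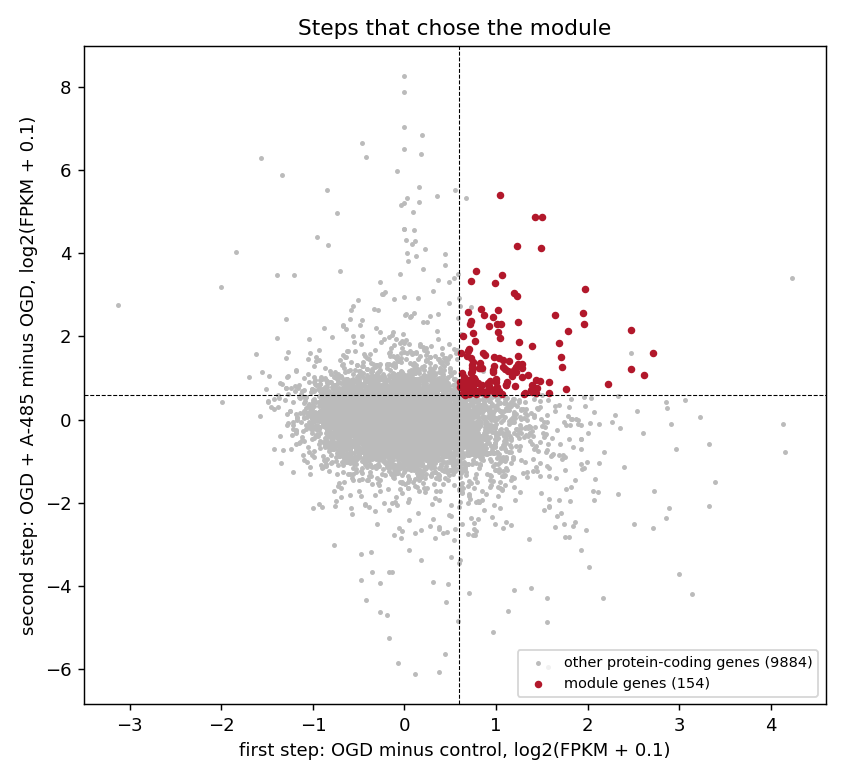
Each dot is 1 of the 10038 eligible genes, with the deprivation step on the x axis and the A-485 step on the y axis, both in log2(FPKM + 0.1), and dashed lines at 0.6. The 154 module genes (red) fill the upper right corner, up to 2.72 on the x axis and 5.39 on the y axis, and other genes in that corner (grey) are those left out by the rule or with overlapping groups.

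By function, 122 of the 154 genes were placed by hand in 10 roles after their values had been seen, and 32 were not assigned. Genes are named below by a rule based on the size of the steps, abundance and membership in fixed gene lists, which gave 51 module genes, not all of them printed. Other members are named to complete a role, after their values had been seen.

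**Figure D2:**
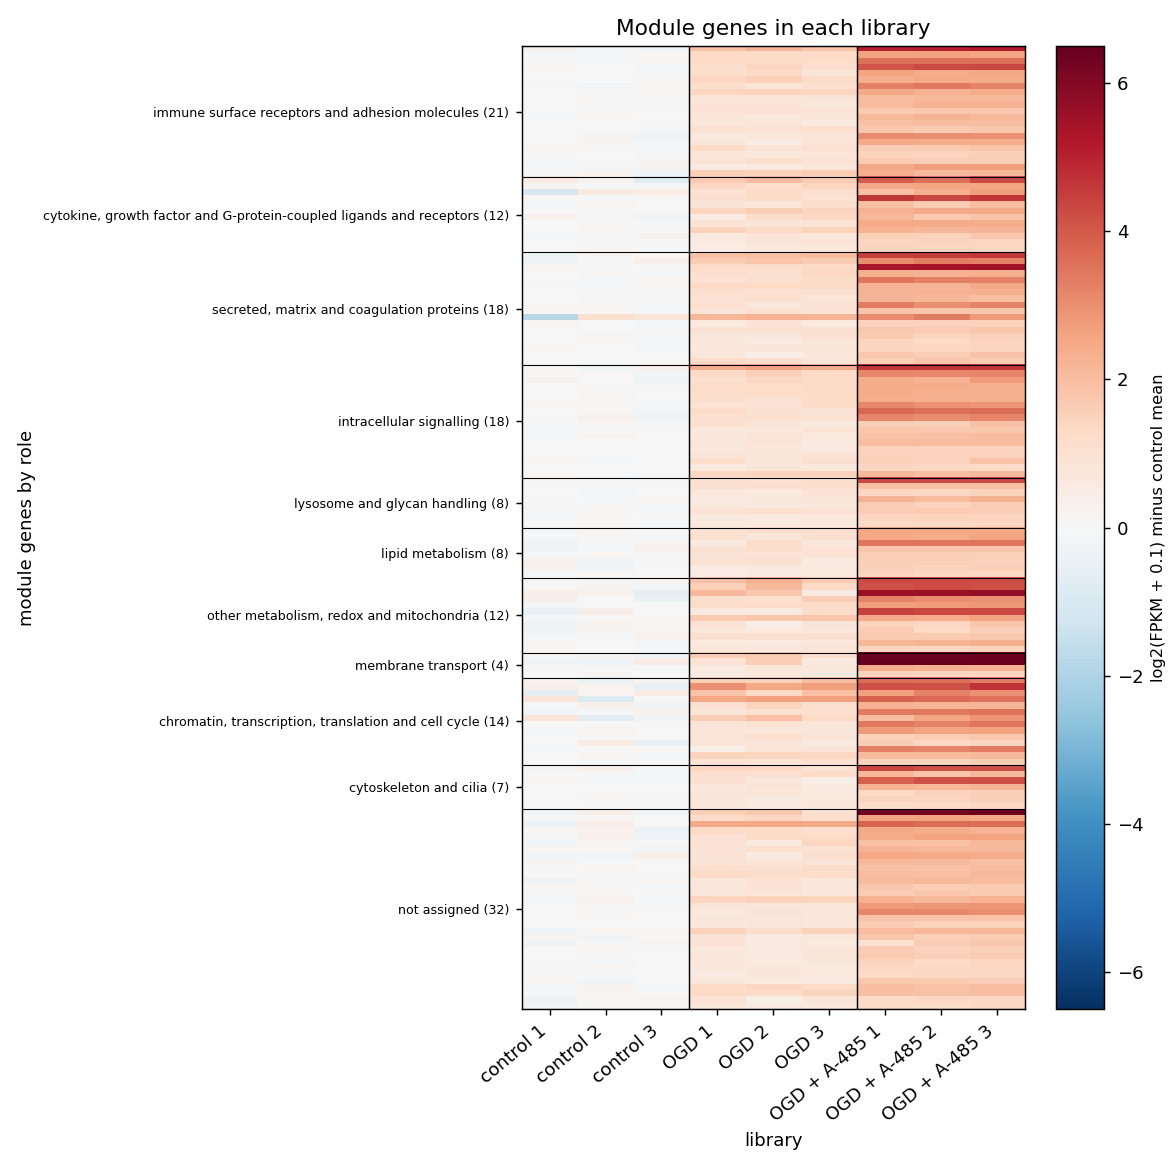
Rows are the 154 module genes grouped by role, with the number of genes of each role in parentheses, and columns are the 9 libraries. Colour gives log2(FPKM + 0.1) minus the gene's control mean, from blue (below that mean) through white (0) to dark red (6 and more), so that the 3 control columns are pale, the OGD columns light red and the OGD + A-485 columns darker in every role.

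The largest role was that of immune surface receptors and adhesion molecules, with 21 genes, deprivation steps of 0.64 to 1.97 and A-485 steps of 0.63 to 3.13. The A-485 step was the larger in 13 of them. Clec12a, an inhibitory C-type lectin receptor for uric acid crystals (ENSMUSG00000053063, chr6:129342691-129365303 of GRCm38, plus strand), measured 0.0812, 0.0381 and 0.0335 FPKM in control, 0.455, 0.597 and 0.424 in OGD and 4.84, 4.94 and 5.38 in OGD + A-485. These values came from 3 to 6, 32 to 43 and 391 to 431 reads, so that the gene was close to silent in all control libraries and clearly read in all OGD + A-485 libraries. Msr1, a class A scavenger receptor that takes up modified lipoproteins, measured 0.413, 0.387 and 0.331 FPKM in control, 0.879, 1.17 and 0.930 in OGD and 8.12, 9.18 and 9.51 in OGD + A-485. Its A-485 step, 3.05, was larger than its deprivation step, 1.19, and the OGD values stayed near 1 FPKM in each library. Itgam, the alpha chain of complement receptor 3 (CD11b), rose from 8.48 ± 0.420 FPKM (SD, n = 3) in control to 15.1 ± 1.01 in OGD and 39.1 ± 2.99 in OGD + A-485.

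Siglec1, a macrophage receptor for sialic acids, had 4.51, 5.10 and 3.86 FPKM in control, 6.84, 7.57 and 7.85 in OGD and 38.6, 36.9 and 35.3 in OGD + A-485. The OGD libraries lay just above the control libraries and far below the A-485 libraries, with steps of 0.72 and 2.30. Fc receptors for IgG gave a pair of module genes that lie 21.4 kb apart on chromosome 1. Fcgr3 measured 35, 35.9 and 35.3 FPKM in control, 68.2, 66.7 and 66 in OGD and 114, 121 and 119 in OGD + A-485, with steps of nearly equal size (0.92 and 0.82). For Fcgr4 the values were 5.36, 6.09 and 4.87 FPKM, 9.13, 7.52 and 10.2 and 30.1, 29.3 and 28.3, with most of the rise in the A-485 step (1.70 against 0.71). Their sequences are related, and reads shared between Fc receptor genes could have been split by the counting.

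Cd244a, a receptor of the SLAM family that binds CD48, measured 2.98, 3.07 and 3.52 FPKM in control, 7.88, 7.64 and 8.08 in OGD and 20.1, 20.7 and 19.5 in OGD + A-485, with steps of 1.28 and 1.34. The groups were evenly spaced on the log scale, and Cd244a overlaps Ly9 on the opposite strand. Toll-like receptors were present with Tlr13, which senses bacterial ribosomal RNA, and Tlr6, which pairs with TLR2 to sense lipopeptides. Tlr13 went from 14.4 ± 0.228 FPKM (SD, n = 3) in control to 24 ± 1.65 in OGD and 56.6 ± 1.95 in OGD + A-485. Tlr6 was less abundant, with 2.25, 2.43 and 2.85 FPKM in control, 4.72, 5.56 and 4.88 in OGD and 8.45, 7.64 and 7.74 in OGD + A-485, and its larger step was the deprivation step.

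Among the other 12 receptors of this role, Sdc3 (a heparan sulfate proteoglycan), Cd72 and Cd28 had deprivation steps of 1.58, 1.43 and 1.35, each larger than the A-485 step of the same gene. Igsf6 and Pirb had A-485 steps of 2.35 and 2.30, larger than their deprivation steps, and Cd200r4 had a deprivation step of 0.64 and a larger A-485 step. Pirb belongs to a family of closely related paired receptors and its counts are uncertain for that reason. Colec12, a scavenger receptor with a collectin domain, was the most abundant in OGD + A-485 at 144 ± 4.23 FPKM (SD, n = 3), from 33.9 ± 1.36 in control. The remaining genes were Ceacam2, Pilra, Cd300lf, Cd52 and Plaur (the urokinase receptor), with deprivation steps of 0.74 to 1.07 and A-485 steps of 0.68 to 1.44.

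Ligands and receptors for cytokines, growth factors and G-protein-coupled signals made up 12 genes, with deprivation steps of 0.62 to 1.78 and A-485 steps of 0.64 to 3.47. Csf1r, the receptor for CSF1 and IL-34 on which microglia depend (ENSMUSG00000024621, chr18:61105572-61132149 of GRCm38, plus strand), measured 23.9, 25.4 and 23.4 FPKM in control, 44.2, 43.9 and 45.7 in OGD and 133, 128 and 130.3 in OGD + A-485. Within each group the libraries differed by less than 10 FPKM, and the mean was 1.84-fold that of control in OGD, with a further 2.93-fold under A-485. Cx3cr1, the fractalkine receptor and a classic microglial gene, measured 5.72, 6.36 and 5.69 FPKM in control, 16.7, 14.4 and 16.2 in OGD and 28.8, 26.9 and 27.8 in OGD + A-485. Here the deprivation step (1.39) was larger than the A-485 step (0.82). Cx3cr1 overlaps 5 other expressed genes, among them the module gene Ttc21a on the opposite strand, and the sources used here do not state whether the counting used strand, so their reads cannot be told apart. The median A-485 step of its 50 nearest neighbours was -0.37. Around all module genes this neighbour median ranged from -0.54 to 0.58, with a median of 0.06.

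Gpr18, a G-protein-coupled receptor of leukocytes, had 0.250, 0.187 and 0.0412 FPKM in control, 0.682, 0.872 and 0.664 in OGD and 3.61, 2.79 and 4.54 in OGD + A-485. The control values stand for 1 to 5 reads, and Gpr18 overlaps Ubac2, which is on the opposite strand. Gipr, the receptor for the gut hormone GIP, measured 1.10, 0.947 and 1.03 FPKM in control, 2.28, 2.45 and 2.06 in OGD and 28.2, 22.6 and 27.8 in OGD + A-485, and its A-485 step of 3.47 was the largest of this role. Ccrl2, an atypical receptor that binds chemerin, measured 1.41, 1.13 and 1.19 FPKM in control, 3.33, 2.75 and 3.42 in OGD and 7.17, 7.80 and 7.90 in OGD + A-485. Its steps, 1.28 and 1.25, were close to equal.

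Il7r, a chain of the receptors for IL-7 and TSLP, measured 5.31, 5.42 and 5.18 FPKM in control, 14.3, 16.5 and 14.3 in OGD and 25.9, 29.4 and 30 in OGD + A-485, with most of its rise in the deprivation step. Crlf2, which pairs with it in the TSLP receptor, had steps of 0.93 and 0.94, and Csf2rb2, a chain of the mouse IL-3 receptor with a near-identical paralog in Csf2rb, had steps of 0.77 and 0.64. Angpt2, a ligand of the receptor TIE2, was low, at 1.16, 1.10 and 1.44 FPKM in control, 1.98, 2.33 and 2.06 in OGD and 3.71, 3.60 and 4.30 in OGD + A-485. P2ry6, a receptor for UDP that drives phagocytosis by microglia, measured 3.11, 3.35 and 2.84 FPKM in control, 4.33, 4.95 and 5.20 in OGD and 8.68, 8.42 and 7.90 in OGD + A-485, and its OGD and control libraries lay close together. The neighbours Tnfsf13 (APRIL) and Tnfsf12 (TWEAK) are ligands of the TNF family that lie 466 bases apart on chromosome 11. Tnfsf13 had between 2 and 12 reads in the control libraries and 35 to 61 in the OGD + A-485 libraries. A transcript antisense to both genes, Tnfsf13os, met the same numerical conditions, and reads of the 3 genes could not be told apart where they overlap.

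**Figure D3:**
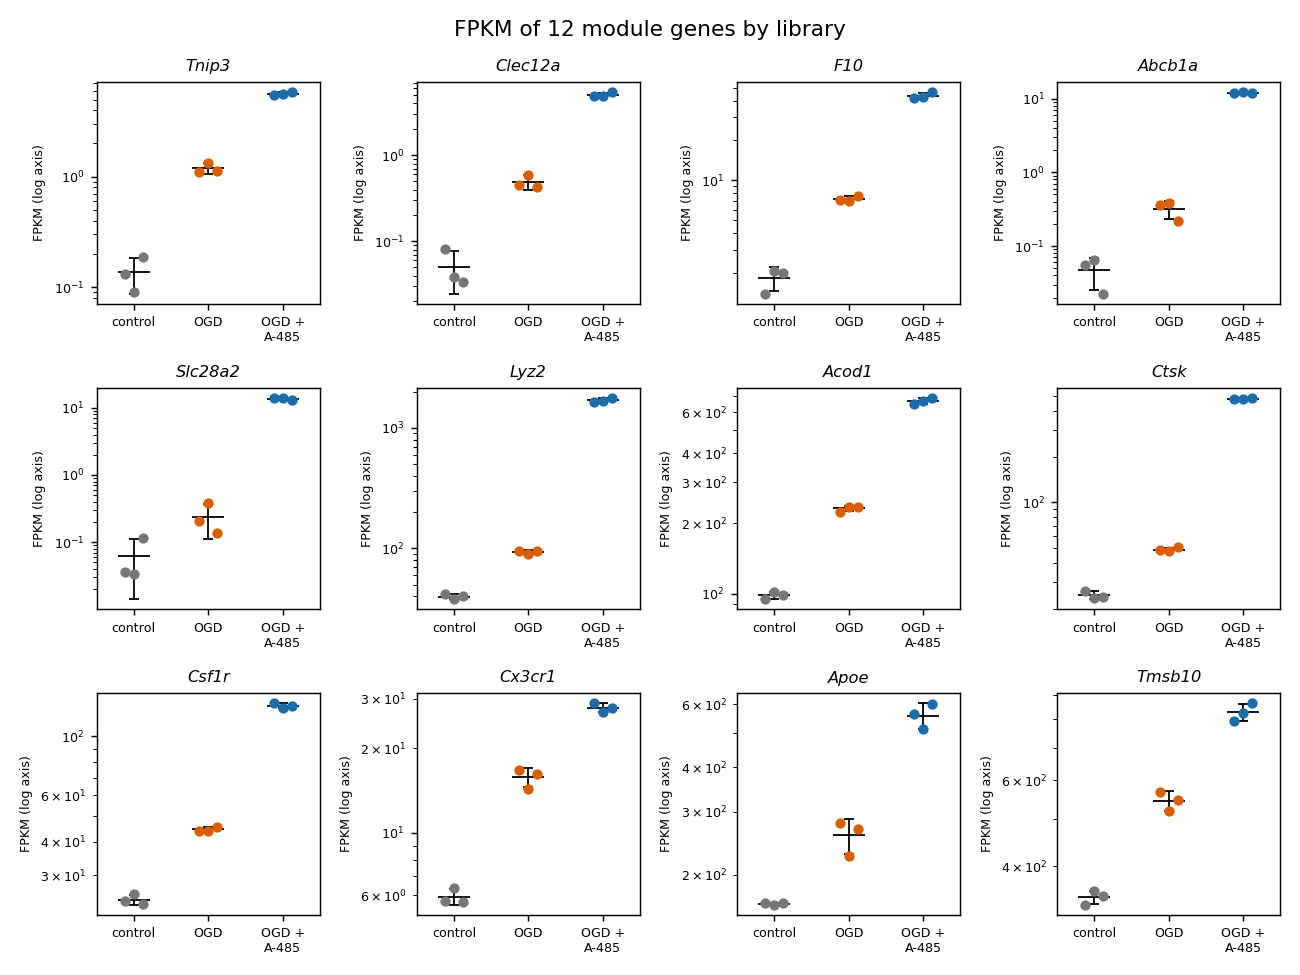
FPKM (log axis) of 12 module genes in the 9 libraries, with 1 dot per library, a horizontal line at the group mean and bars of 1 SD (n = 3). The groups climb from control (grey) to OGD (orange) and OGD + A-485 (blue) in each panel, with a larger last rise in Slc28a2, Abcb1a, Lyz2 and Ctsk, a smaller one in Tnip3 and Cx3cr1, and even spacing in Tmsb10.

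Secreted, matrix and coagulation proteins numbered 18, with deprivation steps of 0.63 to 2.22 and A-485 steps of 0.61 to 4.18. Lyz2, the lysozyme of macrophages (ENSMUSG00000069516, chr10:117277331-117282321 of GRCm38, minus strand), reached the highest level of any module gene, with 41.7, 37.8 and 39.8 FPKM in control, 95.3, 89.9 and 94.6 in OGD and 1631, 1687 and 1775 in OGD + A-485. The mean was 2.34-fold that of control in OGD and 18.2-fold that of OGD under A-485, and the gaps between groups were far wider than those within them. Lyz2 has a close paralog in Lyz1, and the assignment of reads between them is uncertain. F10, coagulation factor X (ENSMUSG00000031444, chr8:13037308-13056676 of GRCm38, plus strand), measured 1.40, 2.08 and 2.01 FPKM in control, 7.11, 7 and 7.65 in OGD and 41.8, 42.6 and 46.1 in OGD + A-485. The gene went through increases of 3.96-fold and 5.99-fold between group means, with wide gaps between the groups.

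Apoe, the lipid carrier that microglia secrete, measured 167, 165 and 166 FPKM in control, 279.6, 225 and 268 in OGD and 564, 511 and 601 in OGD + A-485. The 3 control libraries were nearly equal and the OGD libraries more spread, and the deprivation step of 0.63 was just over the threshold. Lgals3, which encodes galectin-3, a secreted lectin of activated microglia, measured 132, 128 and 125 FPKM in control, 262, 242 and 253 in OGD and 595, 607 and 637 in OGD + A-485. P4hb, a protein disulfide isomerase and subunit of collagen prolyl 4-hydroxylase, measured 171, 181 and 180.0 FPKM in control, 355, 349 and 358 in OGD and 588, 552 and 621 in OGD + A-485. Galectin-3 gained more in the A-485 step (1.28 against 0.98) and P4hb more in the deprivation step, its A-485 step being 0.73.

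Wfdc17, a small secreted protein with a whey acidic protein domain, measured 2.25, 2.77 and 3.59 FPKM in control, 9.14, 10.2 and 8.94 in OGD and 24.1, 29.1 and 28.1 in OGD + A-485. Tgm2, the transglutaminase that cross-links matrix proteins, measured 1.58, 1.80 and 1.47 FPKM in control, 3.60, 2.73 and 3.18 in OGD and 16.9, 13.8 and 15.8 in OGD + A-485. Most of the rise of Tgm2 fell in the A-485 step (2.26), whereas the steps of Wfdc17 were alike (1.71 and 1.51). Ecm1, an extracellular matrix protein, had steps of 1.13 and 1.18 and reached 31.7 ± 1.29 FPKM (SD, n = 3) in OGD + A-485. The remaining 10 genes were Ntng2, Col23a1, Vwf (von Willebrand factor), Tcn2 (a carrier of vitamin B12), Lgals2, Ccbe1, P3h3, Fam20c, Pam and Edil3. Ntng2 had the largest A-485 step among them, 2.29. Lgals2 had the largest deprivation step of the role, 2.22, but its control libraries held 1 to 13 reads, and the library with 1 read carries much of that step.

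Intracellular signalling was the role of 18 genes, with deprivation steps of 0.69 to 2.47 and A-485 steps of 0.63 to 2.63, and 9 of the 18 had both steps at 1 or more. Tnip3, a partner of the ubiquitin-editing enzyme A20 that restrains NF-kB signalling (ENSMUSG00000044162, chr6:65525313-65634040 of GRCm38, plus strand), had the largest smaller step of the whole module. It measured 0.130, 0.0900 and 0.187 FPKM in control, 1.11, 1.34 and 1.13 in OGD and 5.52, 5.67 and 5.79 in OGD + A-485. The libraries of each group lay close to each other and far from the next group, with steps of 2.47 and 2.16 and increases of 8.81-fold and 4.74-fold between means. Rapgef2, an exchange factor that activates Rap GTPases, measured 3.40, 3.52 and 3.27 FPKM in control, 7.89, 7.83 and 8.31 in OGD and 18.2, 18.2 and 17 in OGD + A-485. Rap2a, a GTPase of that family, measured 3.97, 4.96 and 4.27 FPKM in control, 7.12, 8.12 and 6.95 in OGD and 16.2, 16.5 and 17.6 in OGD + A-485. Rapgef2 rose by similar steps and Rap2a mainly in the A-485 step.

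Other signalling genes included the tyrosine kinase Fes, the phosphatase Ptpn14, the exchange factors Spata13 and Psd2, the adaptor Fyb, and Ncf4, a cytosolic subunit of the phagocyte NADPH oxidase. Fes measured 4.53, 4.85 and 4.48 FPKM in control, 10.2, 10.7 and 11.3 in OGD and 24.8, 23.2 and 23.1 in OGD + A-485. Ncf4 measured 21.9, 23.6 and 25 FPKM in control, 38.1, 38.2 and 43.1 in OGD and 81.2, 78.6 and 80 in OGD + A-485. Fes gained about equally in its steps (1.20 and 1.14), and Ncf4, which lies 19.9 kb from the module gene Csf2rb2, gained more in the A-485 step. Psd2, Tifab and Trim29 had the A-485 steps 2.63, 2.12 and 1.96, each larger than the deprivation steps of 1.02, 1.02 and 1.04. Aatk was the reverse case, with 1.44 and 0.63. Fkbp1b, Gngt2, Rnf13, Dstyk, Pea15a and Spsb2 completed the role, with deprivation steps of 0.69 to 1.22 and A-485 steps of 0.65 to 1.31.

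Lysosomal and glycan-handling genes numbered 8, with deprivation steps of 0.64 to 1.11 and A-485 steps of 0.65 to 3.30. Ctsk, the collagen-degrading cathepsin K (ENSMUSG00000028111, chr3:95499256-95509362 of GRCm38, plus strand), stood apart from the others. It measured 26.3, 23.5 and 24 FPKM in control, 48.6, 47.9 and 50.6 in OGD and 477, 482 and 488 in OGD + A-485. Its mean was 1.99-fold higher in OGD than in control, and A-485 added a further 9.84-fold. Fuca1, which removes fucose from glycans, measured 10.2, 9.77 and 10.5 FPKM in control, 16.1, 15.8 and 18.6 in OGD and 26.9, 26 and 29.3 in OGD + A-485. Ctns, the transporter that exports cystine from lysosomes, measured 5.32, 5.86 and 5.66 FPKM in control, 8.53, 8.79 and 9.22 in OGD and 14.9, 15.6 and 15.7 in OGD + A-485. Both had modest steps of under 0.8. In the other 5 genes, Man2b2, Napsa, Galnt6, Lyst and Nagk, the A-485 step ranged from 0.65 in Nagk to 1.53 in Napsa, an aspartic protease.

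Lipid metabolism was the role of 8 genes, with deprivation steps of 0.60 to 1.04 and A-485 steps of 0.66 to 2.65. Abcd2, a peroxisomal importer of very long-chain fatty acids, measured 0.567, 0.626 and 0.748 FPKM in control, 1, 1.58 and 1.15 in OGD and 8.08, 8.30 and 8.18 in OGD + A-485. The A-485 libraries of Abcd2 were far above the other 6, with an A-485 step of 2.65 against a deprivation step of 0.83. Phyh, which acts in peroxisomal alpha-oxidation of phytanic acid, had steps of 1.01 and 0.79. Alox5ap, the protein that presents arachidonic acid to 5-lipoxygenase, measured 24.6, 18.8 and 20.4 FPKM in control, 30.8, 33.3 and 32.8 in OGD and 62.5, 56.8 and 62.7 in OGD + A-485. Its OGD libraries lay close above its control libraries and the A-485 libraries well above both. Plb1, Plpp3, Cyp4v3 and Hacd4 had A-485 steps of 0.66 to 1.52.

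Other enzymes, redox proteins and mitochondrial proteins numbered 12, with deprivation steps of 0.62 to 1.96 and A-485 steps of 0.61 to 4.14. Acod1, which makes the antimicrobial metabolite itaconate in activated macrophages (ENSMUSG00000022126, chr14:103046977-103056573 of GRCm38, plus strand), was the most abundant, with 94.5, 102 and 99 FPKM in control, 224, 235 and 236 in OGD and 648, 666 and 689.8 in OGD + A-485. The increases between group means were 2.36-fold and 2.88-fold, with tight libraries. Aox2, an aldehyde oxidase that needs a molybdenum cofactor, measured 0.182, 0.146 and 0.203 FPKM in control, 0.926, 1.25 and 0.801 in OGD and 5.31, 5.11 and 5.14 in OGD + A-485. Mocos, the enzyme that adds sulfur to that cofactor, was also in the module, with 2.18, 2.31 and 2.48 FPKM in control, 7.71, 8.18 and 8.46 in OGD and 13.2, 13 and 14.5 in OGD + A-485. Aox2 rose in both steps (1.96 and 2.30), and Mocos mainly in the deprivation step (1.76 against 0.74).

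Ddah1, which breaks down a natural inhibitor of nitric oxide synthases, measured 0.207, 0.247 and 0.171 FPKM in control, 0.789, 1.23 and 0.643 in OGD and 5.34, 5.69 and 5.22 in OGD + A-485. Gstm2, a glutathione transferase with close paralogs, had 0 to 2 reads in the control libraries, 3 to 12 in the OGD libraries and 172 to 193 in the OGD + A-485 libraries. Its FPKM was 0.0892, 0.0836 and 0 in control, 0.561, 0.412 and 0.127 in OGD and 7.01, 7.20 and 7.97 in OGD + A-485. The gene was thus all but absent without A-485, and its deprivation step rests on very few reads. Cox6a2, a subunit of cytochrome c oxidase best known from heart and muscle, showed a similar picture, with 2 to 5, 5 to 9 and 86 to 97 reads in the 3 groups. Msrb1, a methionine sulfoxide reductase, had steps of 0.62 and 1.59, and Ak8, Aldh1b1, Tst, Mcub and Cndp2 had A-485 steps of 0.61 to 1.85.

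Membrane transport held 4 genes, and the A-485 step was the larger in all 4. Slc28a2, a concentrative nucleoside transporter, measured 0.0356, 0.0334 and 0.117 FPKM in control, 0.205, 0.383 and 0.135 in OGD and 13.9, 13.8 and 13.2 in OGD + A-485. Abcb1a, the drug efflux pump P-glycoprotein (ENSMUSG00000040584, chr5:8660077-8748575 of GRCm38, plus strand), measured 0.0546, 0.0640 and 0.0225 FPKM in control, 0.358, 0.378 and 0.221 in OGD and 11.8, 12.1 and 11.9 in OGD + A-485. For both genes the values without A-485 were below 0.4 FPKM in all 6 libraries and those with A-485 above 11 FPKM in all 3. The control libraries held 2 to 8 reads of Slc28a2 and 2 to 5 of Abcb1a, so no fold against control is given. Slc7a8, an exchanger of neutral amino acids, measured 7.13, 7.64 and 6.96 FPKM in control, 11.1, 12.6 and 11.6 in OGD and 39.1, 36.1 and 35.7 in OGD + A-485. Atp8b4, a P4-type ATPase, measured 19.6, 21.1 and 20.2 FPKM in control, 30.9, 33.1 and 30.6 in OGD and 55.6, 53.6 and 54.6 in OGD + A-485, with the smallest A-485 step of the 4 (0.79).

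Genes of chromatin, transcription, translation and the cell cycle numbered 14, and the A-485 step was the larger in only 5. Lbh, a regulator of transcription, measured 0.256, 0.131 and 0.250 FPKM in control, 0.807, 0.765 and 1.13 in OGD and 3.64, 3.59 and 3.11 in OGD + A-485. Zfp467 and Zfp362, zinc finger genes, rose mainly in the A-485 step. Zfp467 measured 0.246, 0.264 and 0.363 FPKM in control, 0.572, 0.668 and 0.735 in OGD and 3.88, 4.02 and 4.40 in OGD + A-485. Zfp362 measured 0.564, 0.598 and 0.668 FPKM in control, 0.824, 1.18 and 1.16 in OGD and 6.84, 6.33 and 7.27 in OGD + A-485. In both genes the OGD libraries stayed near or below 1 FPKM, and the A-485 libraries lay at about 4 to 7 FPKM. Smarca2, an ATPase of the BAF chromatin remodelling complex, had steps of 0.77 and 1.90.

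Mxd4, a partner of MAX that opposes MYC, measured 0.679, 0.637 and 0.728 FPKM in control, 1.34, 1.29 and 1.40 in OGD and 2.03, 1.99 and 2.28 in OGD + A-485. Cdkn2c, an inhibitor of the kinases CDK4 and CDK6, measured 1.11, 1.57 and 0.782 FPKM in control, 2.08, 2.06 and 1.69 in OGD and 3.54, 2.99 and 3.15 in OGD + A-485. Both stayed low in every group and rose by small steps. Rpl22l1, a paralog of ribosomal protein L22, measured 2.78, 2.86 and 2.89 FPKM in control, 5.17, 5.72 and 5 in OGD and 32, 27.8 and 32.4 in OGD + A-485, and most of its rise fell in the A-485 step (2.51). Rpl3l, a paralog of ribosomal protein L3 known from muscle, had 2 to 8 reads in the control libraries and 42 to 69 in the OGD + A-485 libraries. Cpeb1, which controls mRNA polyadenylation, had steps of 0.91 and 0.71.

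Histone genes of the Hist1 cluster on chromosome 13 gave 5 members, Hist1h4h, Hist1h2bg, Hist1h3d, Hist1h2ad and Hist1h2bc, which lie up to 153 kb apart. Hist1h2bc was the only abundant member, with 17.4, 19.4 and 16.8 FPKM in control, 49.4, 46.5 and 45.2 in OGD and 74, 74.4 and 76.2 in OGD + A-485. Its deprivation step (1.39) was larger than its A-485 step (0.67). Hist1h4h had 1 or 2 reads in each control library, 11 to 15 in the OGD libraries and 41 to 58 in the OGD + A-485 libraries. Genes of the same histone type are near-identical in sequence, so the split of reads among genes of a type is uncertain. Over the 28 other histone genes of the Hist clusters tested, a list added after the values had been seen, 6 were called higher and 1 lower in OGD against control, and 5 higher and 0 lower in OGD + A-485 against OGD, with medians of 0.48 and 0.38. Over all genes tested, 11.2% and 12.2% were called higher and 9.81% and 13.4% lower in these comparisons.

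Cytoskeletal and ciliary genes numbered 7, with deprivation steps of 0.66 to 1.23 and A-485 steps of 0.60 to 3.33. Tmsb10 and Tmsb4x encode thymosins that bind actin monomers and were among the most abundant module genes. Tmsb10 measured 333, 355 and 346 FPKM in control, 569, 518 and 547 in OGD and 793, 827 and 863 in OGD + A-485. Tmsb4x measured 196, 203 and 209 FPKM in control, 336, 346 and 304 in OGD and 494, 579 and 596 in OGD + A-485. Both rose by small and nearly equal steps, and reads shared with related sequences in the table, such as Gm9844 for Tmsb10, are uncertain. Evl, which promotes actin filament growth, and Cfap69, a protein of cilia and flagella, had A-485 steps of 2.97 and 3.33 from levels below 1 FPKM in every control and OGD library. Cyfip2, Myl6 and Ttc21a had A-485 steps of 1.48, 0.78 and 0.90.

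The 32 genes not assigned to a role had deprivation steps of 0.65 to 2.48 and A-485 steps of 0.61 to 4.88, and 19 of them had the larger step with A-485. Selenbp2, a selenium-binding protein, measured 0.264, 0.525 and 0.354 FPKM in control, 2.53, 2.57 and 2.44 in OGD and 6.42, 5.77 and 5.74 in OGD + A-485, with a deprivation step of 2.48 that was more than its A-485 step of 1.22. Slfn2, an interferon-inducible gene of the Schlafen family, measured 11.5, 12.6 and 11.1 FPKM in control, 20.4, 19.5 and 19.4 in OGD and 79.8, 86.4 and 87.3 in OGD + A-485. These differ in where the rise fell, Slfn2 having a deprivation step of only 0.75 and an A-485 step of 2.09. Pkdcc, a secreted kinase, had 0 to 2 reads in the control libraries, 5 to 10 in the OGD libraries and 355 to 368 in the OGD + A-485 libraries. Lrpap1, Slfn2 and Itm2b were the most abundant, with means of 97.5, 84.5 and 79.6 FPKM in OGD + A-485. The others were Gm9844, which has no described function, and Fat3, Disc1, Isoc2b, Perm1, Stra6l, Rundc3b, Tmem104, Sez6l2, Gsap, Ccdc63, Tmem154, Rtl5, Plxdc1, Pcnx, Lxn, Ripor3, Speg, Pbxip1, Apopt1, N4bp2l1, Necap1, Nxpe4, Fam131a, Fgf11, Lst1 and S100a1.

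The threshold of 0.6 was met most narrowly by genes that included Tmsb10, with a smaller step of 0.60, and Mxd4 with 0.61. Just outside were Igf1 and Ring1, whose deprivation steps of 0.599 and 0.595 fell short, and Arhgef11, whose A-485 step of 0.593 did. Igf1, a growth factor made by microglia, measured 1.56, 1.42 and 1.48 FPKM in control, 2.34, 2.48 and 2.09 in OGD, and between 17.4 and 18.8 in OGD + A-485, so it missed the module only by its deprivation step. In 24 module genes the smaller step was under 0.65.

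Promoter sequences are shown for the members with the largest smaller step that had an entry in the RefSeq table (build GRCm38.p6), because both of their steps were large. Each window has 300 bases around the annotated start, most of them before it, 5′ to 3′ on the strand of the gene. They are Aox2 at chr1:58278076-58278375 (plus strand), F10 at chr8:13037058-13037357 (plus strand), Gpr18 at chr14:121915839-121916138 (minus strand) and Lbh at chr17:72918055-72918354 (plus strand). The window of Gpr18 uses a start 107 bases from the end of the gene in the deposited table. For Tnip3 and Clec12a the RefSeq start lies 65085 and 7553 bases from that of the table, so their windows are not shown. Capitals mark matches, on either strand, to any of the motifs spelled out after the sequences, and the rest is in lower case.
Aox2: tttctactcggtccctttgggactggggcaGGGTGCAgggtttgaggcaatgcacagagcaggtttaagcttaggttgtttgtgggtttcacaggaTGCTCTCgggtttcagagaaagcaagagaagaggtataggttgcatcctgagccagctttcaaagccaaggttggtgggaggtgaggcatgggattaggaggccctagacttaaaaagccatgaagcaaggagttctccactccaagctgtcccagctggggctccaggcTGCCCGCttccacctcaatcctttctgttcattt
F10: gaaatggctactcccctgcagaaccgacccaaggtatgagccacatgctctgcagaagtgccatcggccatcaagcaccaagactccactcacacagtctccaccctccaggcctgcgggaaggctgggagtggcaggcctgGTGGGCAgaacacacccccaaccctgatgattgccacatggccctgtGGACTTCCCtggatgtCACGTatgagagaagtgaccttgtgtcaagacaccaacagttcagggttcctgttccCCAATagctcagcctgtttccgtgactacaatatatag
Gpr18: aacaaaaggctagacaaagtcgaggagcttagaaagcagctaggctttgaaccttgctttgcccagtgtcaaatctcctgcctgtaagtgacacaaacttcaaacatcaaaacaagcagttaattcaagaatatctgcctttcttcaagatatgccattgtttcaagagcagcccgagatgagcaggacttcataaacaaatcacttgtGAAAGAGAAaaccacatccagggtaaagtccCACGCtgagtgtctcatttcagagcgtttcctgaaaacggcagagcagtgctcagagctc
Lbh: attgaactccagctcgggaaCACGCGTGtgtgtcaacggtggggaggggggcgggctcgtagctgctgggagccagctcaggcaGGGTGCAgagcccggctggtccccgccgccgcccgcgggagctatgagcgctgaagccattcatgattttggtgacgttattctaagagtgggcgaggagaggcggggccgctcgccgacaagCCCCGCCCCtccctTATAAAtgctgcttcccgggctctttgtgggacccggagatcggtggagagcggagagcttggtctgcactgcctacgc

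Matches in these windows were to 8 motifs. Aox2 held TGCNCNC (metal response core) 3 times, and F10 held ACGTG (hypoxia response core), GGGANNTCC (NF-kB), TGCNCNC and CCAAT once each. Gpr18 held GCGTG (hypoxia response core) and GAAANNGAA (interferon response core), and Lbh held GCGTG 2 times in overlapping positions, TATAAA (a core promoter element), GGGGCGGGG (SP1) and the metal response core. Among the 8116 promoters of genes that averaged 1 FPKM or more, 27.2% held ACGTG, 54.2% GCGTG, 5.78% GGGANNTCC, 59.6% TGCNCNC, 39.6% CCAAT, 6.99% GAAANNGAA, 6.30% TATAAA and 22.8% GGGGCGGGG. The motifs searched without a match in the 4 windows were TGANTCA (AP-1, in 4.47% of all promoters), CACGTG (E-box, 10.8%), TGATGNAAT (C/EBP-ATF, 0.481%), TGACGTCA (CRE, 3.59%), TGACNNNGC (antioxidant, 15.0%), GGGNNTTCC (NF-kB, 7.79%), GAGGAAGT (PU.1, 3.35%), GAANNTTC (heat shock, 5.35%), CCACACCC (KLF, 3.77%), CCGGAAGT (ETS, 9.87%), AAGATGGC (YY1, 5.42%) and GCGCATGCG (NRF1, 4.41%). Searches covered both strands, CACGTG contains ACGTG, and the 2 NF-kB forms can overlap. A match describes letters and is not a binding site, and no match says only that these letters are not in the window. A comparison of motif shares or base composition between the module and all promoters was void, because 119 of the 154 genes (77.3%) had an entry and a minimum of 80% was required.

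By position, module genes lay on all autosomes and the X chromosome. Chromosome 11 held 16, chromosomes 5 and 7 held 15 each, and chromosome 3 held 13, which was 2.86% of its eligible genes against 1.53% over all chromosomes. Besides the histone and Fc receptor genes, close neighbours included Rpl3l and Msrb1, 499 bases apart on chromosome 17, Abcb1a and Rundc3b, 37.1 kb apart on chromosome 5, and P3h3 and Spsb2, 30.5 kb apart on chromosome 6. The median A-485 step of the 50 nearest genes was above 0.3 around 12 of the 154 module genes (7.79%), and around 330 of 10019 eligible genes (3.29%). It was below -0.3 around 8 (5.19%) and 788 (7.87%). The median deprivation step of the neighbours was above 0.3 around 0 module genes and 20 eligible genes. A transcription factor family was named in the deposited table for 3 of the 154 module genes and 659 of the 10038 eligible genes. Overlap with another gene that averaged 1 FPKM or more was found for 29 module genes (18.8%), on the opposite strand for 24 and the same strand for 7. Among these were Csf1r, Tgm2 and Angpt2 (opposite strand) and Ddah1 (same strand). The share over all eligible genes was not computed, so whether the overlap is particular to the module was not tested.

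How the rest of each pathway behaved was read from gene lists without their module genes, by limma calls. Module genes were chosen for being higher, so taking them out lowers the count of higher calls of a list. Medians are of the log2 fold change, and over all 16123 genes tested they were 0.01 in both comparisons, with 11.2% called higher and 9.81% lower in OGD, and 12.2% higher and 13.4% lower with A-485. These shares include the module genes. Without them, 1651 of 15969 genes were called higher and 1581 lower in OGD, and 1824 higher and 2165 lower with A-485. The list of Fc, complement, scavenger and phagocytic receptors held 12 module genes, the most of any list: Clec12a, Cd244a, Msr1, Pirb, Colec12, Itgam, Fcgr3, Pilra, Cd300lf, Siglec1, Fcgr4 and Cd200r4. Of its 62 other genes, 11 were called higher and 6 lower in OGD against control (median 0.13), and 42 higher and 5 lower in OGD + A-485 against OGD (median 1.15). Fcgr1, the high-affinity IgG receptor, was among those that did not follow the module, since it fell in OGD by 0.87 on the log2 scale (limma adjusted p = 3.08e-05) and rose with A-485 by 2.19 (limma adjusted p = 1.38e-07). Tyrobp, the signalling adaptor of TREM2 and other such receptors, did not change by the calls in OGD (0.13, limma adjusted p = 0.170) and rose with A-485 by 1.60 (limma adjusted p = 4.02e-07).

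The lysosome and V-ATPase list held 3 module genes, Ctsk, Fuca1 and Ctns. Of its 92 other genes, 16 were called higher and 1 lower in OGD (median 0.20), and 50 higher and 4 lower with A-485 (median 0.54). The list of homeostatic and disease-associated microglial genes held 5 module genes, Lgals3, Csf1r, Cx3cr1, Cd52 and Apoe. Of its 44 other genes, 9 were called higher and 1 lower in OGD (median 0.20), and 22 higher and 5 lower with A-485 (median 0.53). In these lists more of the other genes were called higher with A-485 than in OGD, beside 12.2% and 11.2% of all genes tested (13.4% and 9.81% lower).

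Cytokine and growth factor receptors held 5 module genes, Ccrl2, Il7r, Csf1r, Cx3cr1 and Csf2rb2. The 62 others gave 15 higher and 5 lower calls in OGD (median 0.08) and 20 higher and 11 lower calls with A-485 (median 0.21). NF-kB, TNF and innate immune signalling held Tnip3, Tlr13 and Tlr6. Its 80 others gave 16 higher and 6 lower calls in OGD (median 0.13) and 22 higher and 11 lower calls with A-485 (median 0.22). Extracellular proteases, matrix and coagulation genes held F10, Ecm1, Tgm2 and Plaur. The 55 others of that list gave 22 higher and 1 lower calls in OGD (median 0.46) but 12 higher and 17 lower calls with A-485 (median -0.13). Of all genes tested, 11.2% were called higher and 9.81% lower in OGD, against 12.2% and 13.4% with A-485.

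The list of lipid storage, fatty acid, LXR and PPAR genes held 4 module genes, among them Abcd2, Hacd4 and Apoe. Its 80 others gave 14 higher and 12 lower calls in OGD, a balance that turned to 11 and 16 after rescaling to library totals (medians -0.01 and -0.06), and 17 higher and 20 lower calls with A-485, where the median was 0.07 but 0.00 or just below after quantile normalization. ABC transporters and P-type ATPases held Abcb1a, Abcd2 and Atp8b4. The 48 others gave 9 higher and 5 lower calls in OGD and 7 higher and 9 lower with A-485, with medians of 0.02 and 0.08 that both turned negative, to -0.02 and -0.01, under quantile normalization. At the deposited scaling, lower calls outnumbered higher calls with A-485 in these lists only once the module genes had been taken out, which did not hold under every other scaling. The shares of all genes tested were 11.2% higher and 9.81% lower in OGD, and 12.2% and 13.4% with A-485.

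Lists with 2 module genes or fewer varied, and those given here were chosen after their values had been seen. They stand beside 11.2% of all genes tested called higher and 9.81% lower in OGD, and 12.2% higher and 13.4% lower with A-485. Some leaned higher in both comparisons, as did MHC and antigen presentation, which held no module gene and of which 9 of 34 genes were called higher and 4 lower in OGD (median 0.27), and 11 higher and 3 lower with A-485 (median 0.17). G-protein-coupled receptors and RGS proteins held Gpr18 and P2ry6, and of the 78 others 17 were called higher and 8 lower in OGD (median 0.23), and 27 higher and 21 lower with A-485 (median 0.22). Cytokines, chemokines and growth factors held Tnfsf13 and Angpt2, and of the 58 others 32 were called higher and 1 lower in OGD (median 0.62), and 7 higher and 26 lower with A-485 (median -0.38). Hypoxia-inducible factor targets held Selenbp2, and of the 65 others 40 were called higher and 1 lower in OGD (median 0.79), and 8 higher and 13 lower with A-485, where the median of 0.04 turned to -0.02 under quantile normalization and library totals. Interferon-stimulated genes held Slfn2, and of the 75 others 8 were called higher and 17 lower in OGD (median -0.07), and 31 higher and 9 lower with A-485 (median 0.32). Solute carriers held Slc28a2 and Slc7a8, and of the 209 others 19 were called higher and 37 lower in OGD (median -0.08), and 59 higher and 29 lower with A-485 (median 0.20). Cell cycle and DNA replication genes held no module gene, and of 63 tested 0 were called higher and 44 lower in OGD (median -0.64), and 3 higher and 28 lower with A-485 (median -0.44). Glycolysis and glucose transport also held none, with 13 higher and 1 lower calls among 31 genes in OGD (median 0.41), and 4 higher and 5 lower calls with A-485 (median 0.06). That last median turned to -0.09 under quantile normalization, -0.003 with library totals and -0.05 with the median of neighbouring genes removed.

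**Figure D4:**
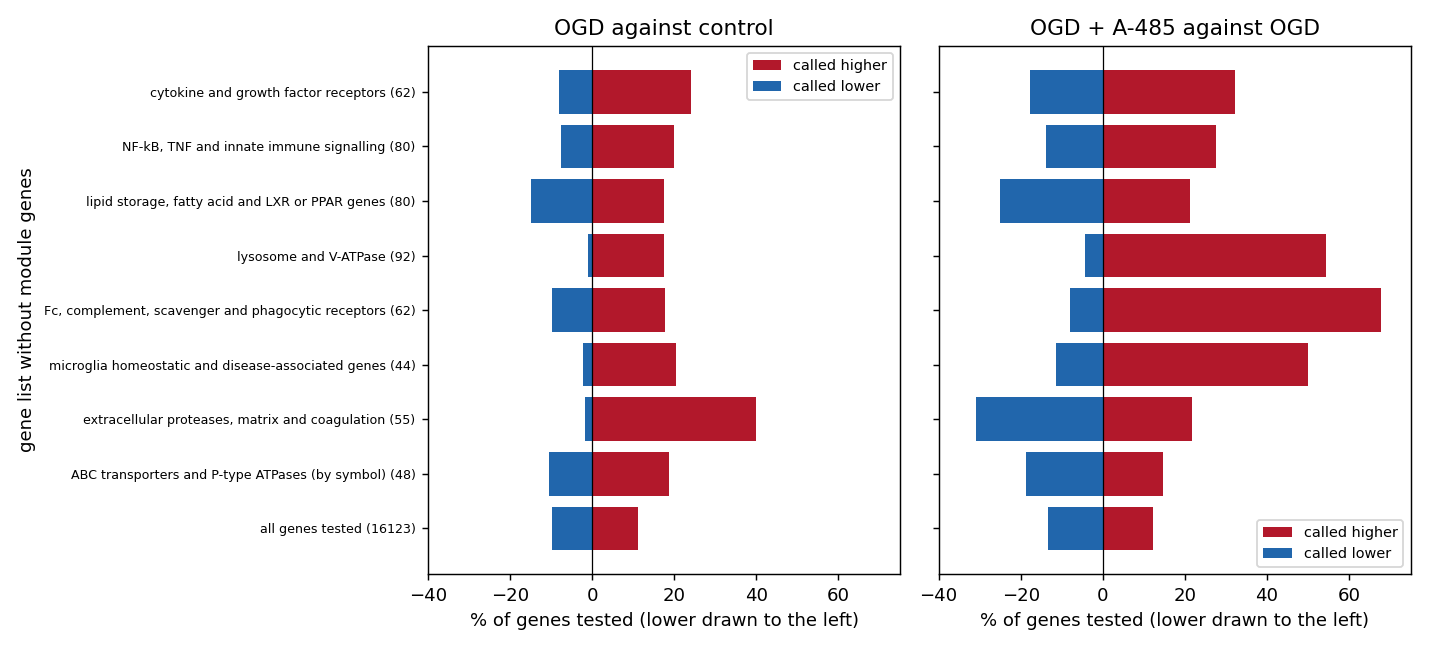
Share of genes called higher (red, to the right) or lower (blue, to the left) by limma in OGD against control and in OGD + A-485 against OGD, for the 8 fixed gene lists that held at least 3 module genes, with these taken out, and for all 16123 genes tested. The Fc, complement, scavenger and phagocytic receptors reach 42 of 62 higher with A-485 against 11 of 62 in OGD, beside 12.2% and 11.2% of all genes.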

How the data were processed

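RNA of BV2 cells was measured in 9 libraries, 3 per group, mapped to control, OGD and OGD + A-485 by the sample labels. According to the study, the authors counted reads on genes with featureCounts and deposited FPKM, which they computed from gene length and read count. Reads were recovered as FPKM times gene length times a divisor per library, which gave whole numbers within 0.1 for 100% of values above 0. Coordinates are of GRCm38.

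Module genes were chosen by the stated conditions on log2(FPKM + 0.1). Other genes were compared by a trended fit of group means over all 9 libraries (limma 3.58.1, R 4.3.3) and Benjamini-Hochberg adjustment. Neighbour medians used 50 genes of any biotype on the same chromosome that averaged 1 FPKM or more. These were 25 on each side, except near chromosome ends, where the window was shifted. Python 3.11.15 was used elsewhere (matplotlib 3.10.9, scipy 1.17.1, pandas 2.3.3, numpy 2.4.6).

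The members and the gene lists were chosen with earlier results of these data known. Roles were assigned by hand and the histone list was added after values had been seen. Genes were named by rule: the 10 module genes with the largest smaller step, the 5 with the highest mean in OGD + A-485, up to 3 per fixed list with the largest smaller step, and the 3 genes just inside and just outside the thresholds. Promoters were those of the first 10 that had an entry, at most 6 and none from chromosome 18. Some items that the rules pick are withheld and not reported here. Alternatives changed the pseudocount, scaling, filters, thresholds, test, block and libraries used.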

Additional observations from a re-analysis of the deposited data

How the results depend on the processing

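The number of module genes, 154, fell to 94 with a minimum mean of 5 FPKM and to 45 with each step at 1 or more, as stricter conditions must give fewer genes. Under the other alternatives it lay between 104 (pseudocount of 1) and 222 (each step at 0.5 or more). It was 130 under quantile normalization, 125 after rescaling to library totals and 150 with the median of neighbouring genes removed. Leaving out 1 library gave 152 to 161 genes, of which at least 143 were in the module, and leaving out a replicate number in all groups gave 156 to 164. Each of the 4 counts of limma calls stayed within 1.5 times its main value in all 23 alternatives, but more genes were called lower than higher in OGD under quantile normalization (1756 against 1622), after rescaling to library totals (1867 against 1588) and with limma-voom on recovered reads. For the 54 named genes, 1664 of 1836 steps under an alternative stayed within 1 SD of the main value and 172 moved further. Leaving out libraries could not turn a step of a module gene, because its groups were chosen not to overlap.

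With the replicate number as a block (replicate block), 208 genes were called higher by limma in both comparisons, against 214 without it, and the calls numbered 1740 higher and 1548 lower in OGD, and 1937 higher and 2109 lower with A-485. Deviations of libraries with the same number had a mean correlation of -0.03 (-0.12 to 0.07, 9 pairs), and those with different numbers 0.02 (-0.09 to 0.13, 18 pairs), so the numbers were not taken to pair samples.

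The module was defined by the values described, from 3 libraries per group of a single cell line, and A-485 without OGD was not sequenced. RNA levels alone were read, and protein was not analysed here. Genes with few reads in control have steps of uncertain size, and the split of reads between overlapping genes or close paralogs is not known.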

Other observations

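Among genes of other biotypes that averaged 1 FPKM or more, 17 of 1860 (0.914%) met the same numerical conditions, 6 of them antisense transcripts. The lincRNA B230312C02Rik measured 0.396, 0.783 and 0.689 FPKM in control, 1.38, 1.31 and 1.75 in OGD, and 13.2, 12.4 and 13.2 in OGD + A-485. The pseudogene BC021767 measured 1.54, 2.31 and 2.72 FPKM in control, 8.58, 8.39 and 9.75 in OGD, and 20.6, 21.3 and 18.9 in OGD + A-485. These were chosen after their values had been seen.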
